A study of Mus musculus with 6 samples.

Results

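Ctsb, Ctsc, Ctsd, Ctsh, Ctsk, Ctsl, Ctss, Ctsz, Lgmn and Cst3 encode the main endosomal and lysosomal proteases of antigen processing and the chief secreted inhibitor of their cysteine members. These 10 genes were chosen by name and were matched to their Ensembl IDs among the 56748 IDs of the count tables. All 10 had counts in every library and passed the filter on low counts described below. Their mRNA levels were measured by RNA-seq of polyadenylated RNA in dendritic cells grown from bone marrow (BMDCs) of WT mice and of mice with a global deletion of Nfkb2 (Nfkb2-/-), with 3 libraries per genotype. Nfkb2 encodes p100, the precursor of the NF-κB subunit p52, and the comparison asks how gene expression in dendritic cells (DCs) depends on this noncanonical arm of NF-κB signaling. In both genotypes, bone marrow cells were grown with GM-CSF at 20 ng/mL and, later in the culture, with GM-CSF plus IL-4 at 10 ng/mL, and no stimulus was added (0 h). C57BL/6 is the strain given for WT bone marrow in a BMDC culture of the study, while sex and age of the donors were not found for the RNA-seq cultures. Since Nfkb2 was missing from all cells of the mouse, its loss also covered the progenitors and any cells in the dish other than DCs.

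Lysosomal proteases cut endocytosed proteins into peptides for MHC class II and remove the invariant chain from class II molecules. Most cathepsins are papain-like cysteine proteases that are made as inactive precursors and become active in acidic compartments. Legumain, the product of Lgmn, is a cysteine protease of another fold that cuts after asparagine, starts the cleavage of some antigens and of the invariant chain, and trims several cathepsins to their mature forms. Cathepsin S, encoded by Ctss, performs the late steps of invariant chain cleavage in DCs and B cells. Cystatin C, encoded by Cst3, is secreted and inhibits cysteine cathepsins and, through a separate site, legumain.

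The coding bases around the active site of 5 of the proteases and around the cathepsin-binding loop of cystatin C show how the members differ. Each stretch of 36 bases comes from the main GENCODE M21 transcript (GRCm38) and is written 5′ to 3′ on the gene's own strand. Capitals mark the codon of the catalytic cysteine in the proteases, and the codons of the QxVxG-type loop in Cst3. These 6 were selected because they are the member that was called (Lgmn), the other members without overlap between the genotypes (Ctsh, Ctsz), the most abundant protease (Ctss), and those called after 2 libraries were left out (Ctsb, Cst3).
Lgmn, chr12:102401913-102401948, minus strand, exon 8 of 14, catalytic codon 191 of 435: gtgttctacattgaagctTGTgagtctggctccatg
Ctsh, chromosome 9, plus strand, across exons 5 and 6, catalytic codon 139 of 333: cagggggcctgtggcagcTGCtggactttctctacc
Ctsz, chr2:174438181-174438216, minus strand, exon 2 of 6, catalytic codon 94 of 306: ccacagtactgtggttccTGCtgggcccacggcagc
Ctss, chromosome 3, plus strand, across exons 4 and 5, catalytic codon 147 of 340: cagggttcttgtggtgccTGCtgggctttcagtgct
Ctsb, chromosome 14, plus strand, across exons 4 and 5, catalytic codon 108 of 339: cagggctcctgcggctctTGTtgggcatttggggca
Cst3, chromosome 2, minus strand, across exons 1 and 2, middle codon of the loop 77 of 140: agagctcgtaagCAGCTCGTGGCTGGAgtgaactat

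The 7 papain family members were picked by a pattern with cysteine and glycine just before the catalytic cysteine, and the same match placed that cysteine. Lgmn and Ctsd were found by the patterns of their own families. Over their aligned coding sequences, the translated products of Ctsk and Ctss were 58% identical (319 aligned residues), those of Ctsl and Ctss 51.5% (326 residues), and those of Ctsk and Ctsl 48.8% (324 residues). The lowest value among the 7 papain family members was 26.5%, for Ctsl and Ctsz. Ctsk and Ctss are also neighbours on chromosome 3, with 17423 bases between them. The other members lie far apart or on separate chromosomes.

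The upstream bases of Lgmn are shown because it was the member that was called. RefSeq (GRCm38.p6) gives 2 start sites for it. Printed is the part of the 250 bases before each start that lies outside GENCODE exons, on the minus strand of chromosome 12, with capitals for matches to CACGTG, the E-box recognised by TFEB-type factors that control lysosomal genes, and to GGNNNTTCC, a κB-like pattern, on either strand.
Lgmn, first start, chr12:102439814-102439978: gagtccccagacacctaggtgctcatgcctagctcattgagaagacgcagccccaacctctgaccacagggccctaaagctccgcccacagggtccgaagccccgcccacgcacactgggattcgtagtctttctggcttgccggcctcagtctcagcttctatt
Lgmn, second start, chr12:102439093-102439342: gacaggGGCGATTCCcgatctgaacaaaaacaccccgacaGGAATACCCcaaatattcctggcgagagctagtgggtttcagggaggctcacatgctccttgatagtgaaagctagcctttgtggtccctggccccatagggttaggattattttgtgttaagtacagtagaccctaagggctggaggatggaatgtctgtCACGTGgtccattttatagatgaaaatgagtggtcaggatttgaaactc

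The first stretch held no match to either pattern. The second lies within the annotated Lgmn gene but outside its exons. It held 1 E-box at 49 bases before its start and 2 κB-like matches at 244 and 210 bases. Over all 32851 RefSeq windows, which run from 250 bases before to 50 bases after a start, 7.15% held CACGTG and 18.5% held GGNNNTTCC. Windows were at hand for 8 of the 10 members. Among them, Ctsd had 2 E-boxes, Ctsl had 1 E-box and 1 palindromic κB-like match (GGAAATTCC), and Ctsz had 1 κB-like match across its start. No binding data were analysed, so these are matches of letters and not sites.

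The 6 libraries held between 29863927 and 55623068 counts, and the 10 members took 0.597% to 0.758% of them. The lowest count of any member in any library was 85, for Ctsk, where counting error adds to the spread between libraries. Levels are given as CPM, counts scaled to library size by edgeR's TMM method. Nfkb2 measured 154 to 355 CPM in WT and 32.3 to 44.8 CPM in Nfkb2-/- BMDCs, with every Nfkb2-/- library below every WT library. Of the other NF-κB genes, Rel, Rela, Relb and Nfkb1 had adjusted p-values of 0.203, 0.191, 0.290 and 0.899 (edgeR). Rel measured 1720 to 2394 CPM in WT and 1345 to 1466 CPM in Nfkb2-/-, and Rela 54.1 to 96.9 and 44.3 to 50.7 CPM. Rel and Rela were thus lower without overlap, where 24.7% of all genes had no overlap, while Relb and Nfkb1 overlapped. A pair of libraries stood apart. WT replicate 3 was lowest of the 6 libraries for 13 of 15 macrophage markers, whereas over all genes tested it was lowest for 25.0%. It was highest for 8 of 10 markers of mature DCs, against 21.8% over all genes. Nfkb2-/- replicate 1 had at least 1 count on 47952 IDs, against 27692 to 33841 in the others. Values of most members are also given without WT replicate 3, and those of some without both libraries.

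The 11 DC markers spanned a wide range. Cd74, the invariant chain, measured 1870 to 3691 CPM, H2-Ab1, a class II chain, 696 to 1139 CPM, and Irf4, a transcription factor of DCs in GM-CSF cultures, 710 to 1338 CPM. Itgax (CD11c) and Zbtb46 measured 115 to 769 CPM, and Batf3, Cd209a and Flt3 3.51 to 26.9 CPM. Clec9a, Siglech and Xcr1, markers of conventional type 1 and plasmacytoid DCs, were at 0 to 5.24 CPM, with Xcr1 at 0 in WT replicate 1 and Siglech at 0 in Nfkb2-/- replicate 2. Zbtb46, Batf3, Cd209a, Flt3, Clec9a, Siglech and Xcr1 were named after their values were seen. All 15 macrophage markers were above 0 in all libraries, with summed levels of 450 to 4665 CPM in WT and 1884 to 2787 CPM in Nfkb2-/-. Lymphocyte and erythroid markers were near 0, with 5 of 11 reaching the filter and a summed level of at most 5.41 CPM over those 5. The study collected the non-adherent cells of the cultures, which it describes as mostly positive for CD11c and without cells high in CD115, the product of Csf1r. No sorting before RNA extraction is described. In such bulk RNA, fewer cells of a type and less RNA per cell cannot be told apart.

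Per length of transcript, Cst3 and Ctss were far above the other members in both genotypes. CPM per kilobase of all annotated exons (RPKM) were 1672 ± 962 (SD, n = 3) for Cst3 and 1175 ± 250 (SD, n = 3) for Ctss in WT, and 2341 ± 489 (SD, n = 3) and 1209 ± 259 (SD, n = 3) in Nfkb2-/-. By all exons these neighbours overlapped in WT, since Cst3 ranged from 1029 to 2778 RPKM and Ctss from 1010 to 1462 RPKM. In Nfkb2-/- they did not, with Cst3 at 1955 RPKM or more and Ctss at 1448 RPKM or less. Next came 6 proteases between 93.6 RPKM (Ctsh) and 167 RPKM (Ctsz) in WT, whose order changed with the length used and of which neighbours overlapped over the libraries. With the length of the main transcript, Ctsh moved from rank 8 to rank 3 in WT. In Nfkb2-/- Ctsz ranked 3 by all exons, at 244 ± 28.4 RPKM (SD, n = 3), but by the main transcript Ctsc came close to it, at 206 ± 53.0 RPKM (SD, n = 3). Lgmn was at rank 5 in WT and at rank 8 in Nfkb2-/- by all exons, where its 37.5 to 41.6 RPKM lay below the 49.3 to 54.3 RPKM of Ctsh. Ctsl at 9.08 ± 7.38 RPKM (SD, n = 3) and Ctsk at 4.35 ± 2.63 RPKM (SD, n = 3) in WT were lowest by either length.

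**Figure D1:**
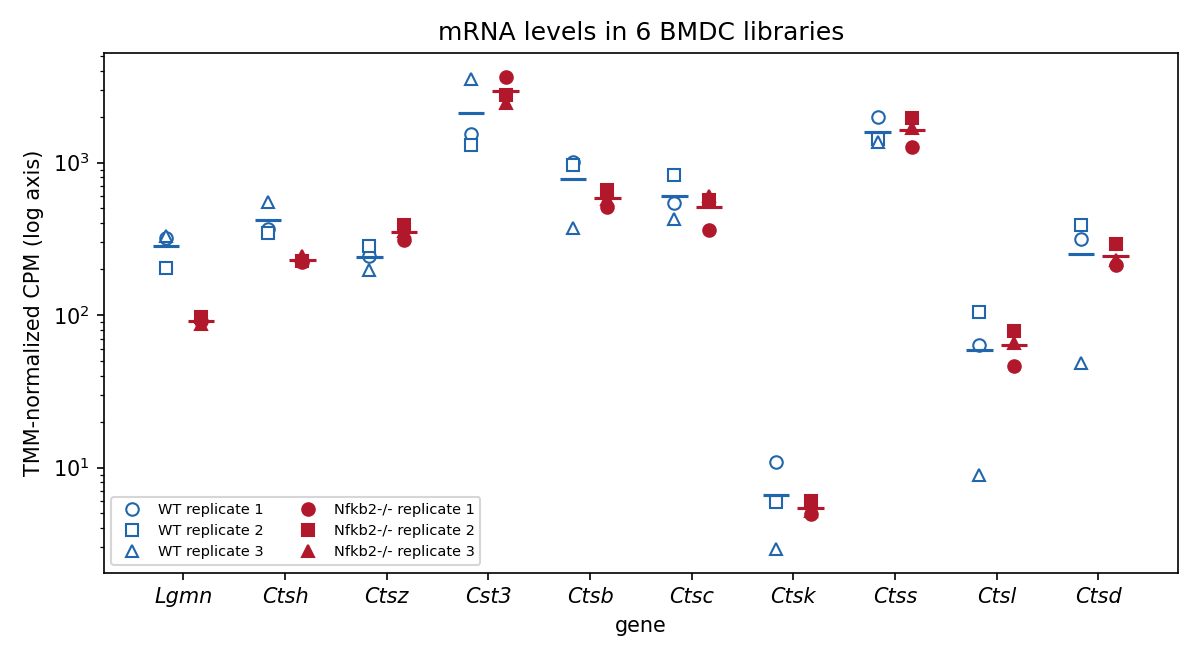
TMM-normalized CPM on a log axis for each of the 10 genes, with open blue symbols for the 3 WT libraries, filled red symbols for the 3 Nfkb2-/- libraries, shapes for replicate numbers and bars for the means. The genotypes are separate for Lgmn, Ctsh and Ctsz, and WT replicate 3 (open triangle) lies far below the other libraries for Ctsl and Ctsd.

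Lgmn mRNA fell in Nfkb2-/- BMDCs to about a 3.10-fold lower level, and it was the member with a difference past the threshold. It measured 321, 205 and 329 CPM in WT replicates 1, 2 and 3, and 91.7, 96.7 and 87.2 CPM in Nfkb2-/- replicates 1, 2 and 3. Every Nfkb2-/- library was below every WT library, and the lowest WT value lay well above the highest Nfkb2-/- value. In WT the mean was 285 ± 69.3 CPM (SD, n = 3), and in Nfkb2-/- it was 91.9 ± 4.76 CPM (SD, n = 3). The log2 fold change of Lgmn was -1.63 (SE, the standard error, 0.21), and the quasi-likelihood test of edgeR over 21849 genes gave an adjusted p of 0.0312. The threshold for a call was an adjusted p under 0.05 together with a change of over 1.2-fold. Called were 1 of the 10 members, against 1.14% of all genes in either direction, 0.682% with lower and 0.453% with higher levels in Nfkb2-/-. The exact permutation test (two-sided, on log2(CPM + 1)) of Lgmn gave p = 0.1, the smallest that 3 libraries against 3 allow.

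The decrease of Lgmn had nearly the same size without the libraries that stood apart, whereas its call depended on which library was left out. Without WT replicate 2 the adjusted p of Lgmn was 0.0067 (edgeR). Without WT replicate 3 its log2 fold change was -1.52 (adjusted p = 0.0415, edgeR), and without both WT replicate 3 and Nfkb2-/- replicate 1 it was -1.54 (adjusted p = 0.0343, edgeR). Without WT replicate 1 or any of the Nfkb2-/- replicates, no gene was called, and the adjusted p-value of Lgmn in edgeR ranged from 0.0882 to 0.186 at log2 fold changes of -1.71 to -1.54. No gene of GENCODE M21 overlapped Lgmn. Reads that map to several places were not examined.

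Ctsh and Ctsz also had no overlap between the genotypes, with Ctsh lower and Ctsz higher in Nfkb2-/-. With Lgmn they made 3 of 10 members without overlap, against 24.7% of all genes tested. Ctsh encodes cathepsin H, which removes single residues from the amino end of peptides. It measured 369, 345 and 549 CPM in WT and 222, 226 and 244 CPM in Nfkb2-/- BMDCs. The Nfkb2-/- values of Ctsh were close together and WT replicate 3 was the highest. Its log2 fold change was -0.87 (SE 0.21, adjusted p = 0.101, edgeR), and the exact permutation test gave p = 0.1.

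Ctsh passed the threshold under 3 of 16 alternatives. With DESeq2, 2 of the 10 members were called, Lgmn and Ctsh (adjusted p = 0.0044), where 8.6% of all genes were called. Without WT replicate 2, edgeR called the same pair of members among 5.87% of all genes, with an adjusted p of 0.0478 for Ctsh. The last was the fit without both libraries that stood apart, described below with the other members it called. WT replicate 3 raised the WT mean of Ctsh, and without that library alone its log2 fold change was -0.63 (adjusted p = 0.0963, edgeR).

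Ctsz encodes cathepsin Z, also known as cathepsin X, which removes single residues from the carboxyl end. It measured 243, 282 and 199 CPM in WT and 308, 390 and 357 CPM in Nfkb2-/- BMDCs. The highest WT value of Ctsz was just below the lowest Nfkb2-/- value. Its log2 fold change was 0.54 (SE 0.18, adjusted p = 0.195, edgeR) and stayed between 0.43 and 0.67 under 16 alternatives, none of which called it. Ctsz shares 10 exonic bases with Nelfcd on the other strand, and the use of strand in the counting was not given in the sources used here.

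Cst3 had the highest CPM of the 10 members in 4 of the 6 libraries, and its WT libraries disagreed. It measured 1531, 1302 and 3517 CPM in WT and 3660, 2754 and 2475 CPM in Nfkb2-/-. WT replicate 3 lay within the Nfkb2-/- range, and the other WT libraries lay below it. The log2 fold change of Cst3 was 0.49 (SE 0.40, adjusted p = 0.577, edgeR). It was 0.30 without Nfkb2-/- replicate 1 (adjusted p = 0.741) and 0.23 without WT replicate 2 (adjusted p = 0.791, edgeR). Without WT replicate 3 it was 1.07 (SE 0.23, adjusted p = 0.0879), and without that library and Nfkb2-/- replicate 1 it was 0.87 (adjusted p = 0.0385, edgeR), past the threshold.

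Ctsb encodes cathepsin B, an abundant protease that cuts within proteins and removes dipeptides from their carboxyl end. It measured 1004, 964 and 371 CPM in WT and 510, 661 and 579 CPM in Nfkb2-/- BMDCs. WT replicates 1 and 2 were above all Nfkb2-/- libraries, and WT replicate 3 was below all of them. The log2 fold change of Ctsb was -0.42 (SE 0.36, adjusted p = 0.597, edgeR). It was -0.75 without WT replicate 3 (adjusted p = 0.102) and -0.68 without both libraries that stood apart (adjusted p = 0.0408, edgeR). Ctsb shares 774 exonic bases with Fdft1 on the opposite strand, but Fdft1 held 399 to 1237 counts against 10786 to 42332 for Ctsb.

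With both libraries left out, a choice made after their values were seen, edgeR called 4 of the 10 members, Lgmn, Ctsh and Ctsb as lower and Cst3 as higher in Nfkb2-/-. In that fit 4.85% of all genes were called. The adjusted p of Ctsz was 0.0706 there. Of the 15 macrophage markers, 5 were called in the same fit, all as lower in Nfkb2-/- (Lyz2 and Csf1r and, named after their values were seen, Apoe, Cd163 and Marco), with summed levels of 4535 and 4665 CPM in WT replicates 1 and 2 and 2787 and 2742 CPM in Nfkb2-/- replicates 2 and 3. Their part in the values of the members was not tested. This fit compares WT replicates 1 and 2 with Nfkb2-/- replicates 2 and 3.

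**Figure D2:**
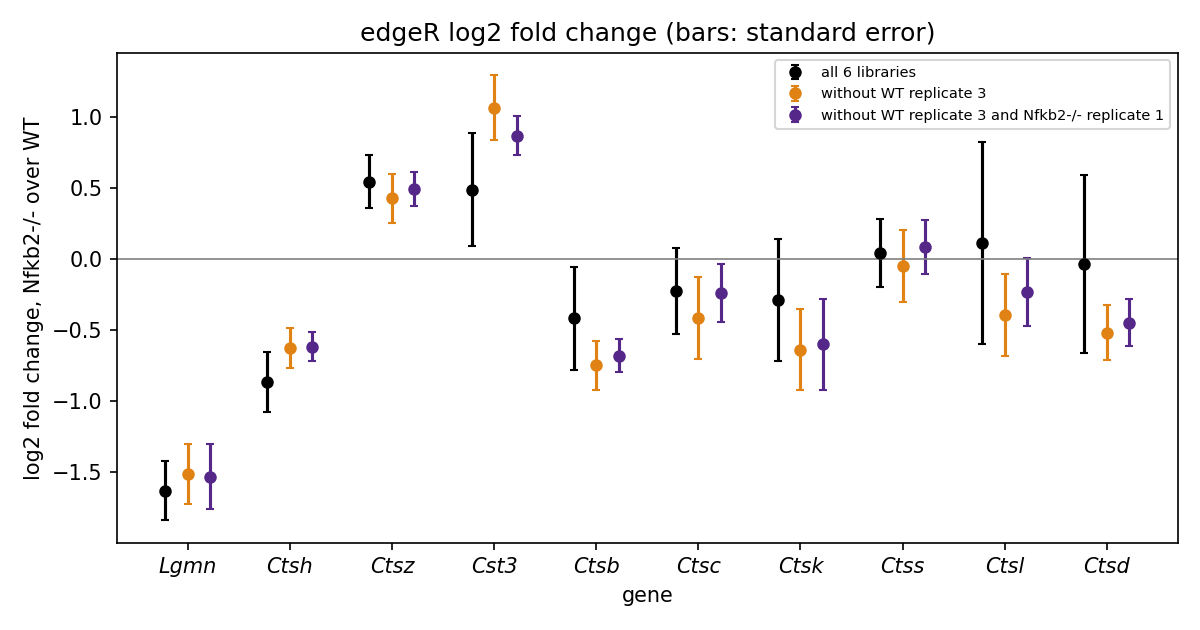
Log2 fold change of Nfkb2-/- over WT from edgeR for each gene, with bars for the standard error, over all 6 libraries (black), without WT replicate 3 (orange) and without WT replicate 3 and Nfkb2-/- replicate 1 (violet). Lgmn stays between -1.63 and -1.52, while Cst3 moves from 0.49 to 1.07 and the bars of Ctsl and Ctsd shrink once WT replicate 3 is left out.

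The remaining proteases overlapped between the genotypes, and exact permutation tests of Cst3, Ctsb and these 5 gave p-values of 0.3 to 1. Ctss measured 1986, 1430 and 1371 CPM in WT and 1268, 1966 and 1689 CPM in Nfkb2-/-, with both genotypes spread over the same range. Its log2 fold change was 0.04 (SE 0.24, adjusted p = 0.950, edgeR), and -0.054 without WT replicate 3. Ctsc encodes cathepsin C, a dipeptidyl peptidase that activates the serine proteases of granules in myeloid and cytotoxic cells. It measured 546, 831 and 424 CPM in WT and 362, 569 and 608 CPM in Nfkb2-/-, again with mixed order, and its log2 fold change was -0.23 (SE 0.30, adjusted p = 0.743, edgeR). Leaving out WT replicate 3 gave -0.42 for Ctsc, and leaving out WT replicate 2 gave 0.082.

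Ctsd and Ctsl varied most among WT libraries together with Ctsk, and WT replicate 3 was the low library each time. Ctsd encodes cathepsin D, the aspartic protease among the members. It measured 315, 389 and 48.7 CPM in WT and 214, 292 and 229 CPM in Nfkb2-/-. In WT replicate 3 the level of Ctsd was 0.138 of the mean of the other WT libraries. Its log2 fold change was -0.04 (SE 0.63, adjusted p = 0.983, edgeR) and -0.52 without that library (adjusted p = 0.258). Without WT replicate 2 it was 0.43 (adjusted p = 0.784), and 6 of 16 alternatives turned its sign, so that no direction can be given for Ctsd.

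Ctsl encodes cathepsin L, which trims the invariant chain in cortical thymic epithelium and degrades proteins in macrophages. It measured 63.7, 104 and 8.88 CPM in WT and 46.7, 78.5 and 65.7 CPM in Nfkb2-/-. WT replicate 3 had 0.106 of the mean of the other WT libraries, the lowest such ratio among the 10 members. The log2 fold change of Ctsl was 0.11 (SE 0.71, adjusted p = 0.954, edgeR) and turned to -0.40 without WT replicate 3 (adjusted p = 0.581), so that no direction can be given. GENCODE M21 also places other genes over Ctsd and Ctsl. Gm49369 shares 808 exonic bases with Ctsd on the same strand, and Gm47123 and Gm49230 share 1742 and 395 with Ctsl. Gm49369, Gm47123 and Gm49230 held 0 counts in all libraries. How reads on shared bases were counted is not given in the sources used here, so the levels of Ctsd and Ctsl may miss such reads.

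Ctsk encodes cathepsin K, the collagen-degrading protease of osteoclasts, and was the lowest of the members. It measured 10.8, 5.97 and 2.93 CPM in WT and 4.93, 6.06 and 5.18 CPM in Nfkb2-/-. Its WT values enclosed all Nfkb2-/- values, and the log2 fold change was -0.29 (SE 0.43, adjusted p = 0.769, edgeR). Leaving out WT replicate 3 gave -0.64 for Ctsk, and leaving out WT replicate 1 gave 0.28.

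The spread between libraries was itself unequal. The coefficient of variation was larger in WT than in Nfkb2-/- for 9 of the 10 members, the exception being Ctss, while over all genes tested it was larger in WT for 50.4%. The median over the members was 40.2% in WT and 15.0% in Nfkb2-/-, against 25.9% and 21.9% over all genes. WT replicate 3 was the lowest library for 5 of the 10 members and the highest for 2 (Ctsh and Lgmn). Lyz2, Mrc1 and Csf1r, the most abundant macrophage markers, were low in the same library as Ctsl and Ctsd. Lyz2, the lysozyme of macrophages, measured 3436, 3407 and 267 CPM in WT and 1234, 2061 and 1867 CPM in Nfkb2-/-. Csf1r, the receptor for the macrophage growth factor CSF1, measured 239, 250 and 37.2 CPM in WT and 115, 131 and 157 CPM in Nfkb2-/-. Over the 15 markers, the median level in WT replicate 3 was 0.146 of the mean of the other WT libraries. Of these 15 markers edgeR called 0 between the genotypes, against 1.14% of all genes, and DESeq2 called 1 (Apoe), against 8.6%. In edgeR 2 of the 15 had an unadjusted p under 0.05, against 3730 of 21849 genes. The part of macrophages in the values of the members was not tested.

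Among WT libraries, Lgmn measured about the same in replicates 3 and 1, at 329 and 321 CPM, and Ctsh was highest in replicate 3. Ccr7, the receptor that guides mature DCs to lymph nodes, was highest in replicate 3 too, at 1149, 640 and 1897 CPM in WT and 673, 611 and 596 CPM in Nfkb2-/-. Ccl22, a chemokine of mature DCs, measured 7787, 5890 and 10728 CPM in WT and 6072, 5826 and 5357 CPM in Nfkb2-/-. Ccl17, a chemokine of DCs, measured 161, 361 and 432 CPM in WT and 2385, 2472 and 2357 CPM in Nfkb2-/-. Lgmn, Ccr7 and Ccl22 were lowest in replicate 2 among WT libraries, and Ccl17 in replicate 1. Over the 10 markers of mature DCs, edgeR called 1 as higher (Ccl17) and 0 as lower, against 1.14% of all genes. In edgeR 7 of the 10 had an unadjusted p under 0.05, against 3730 of 21849 genes. DESeq2 called 4, Ccl17 as higher and, named after their values were seen, Cd83, Fscn1 and Marcksl1 as lower, against 8.6% of all genes. Without overlap 4 were lower and 1 higher, where 24.7% of all genes had no overlap, with a median log2 fold change of -0.71 against 0.08 over all genes. Their part in the values of Lgmn and Ctsh was not tested.

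**Figure D3:**
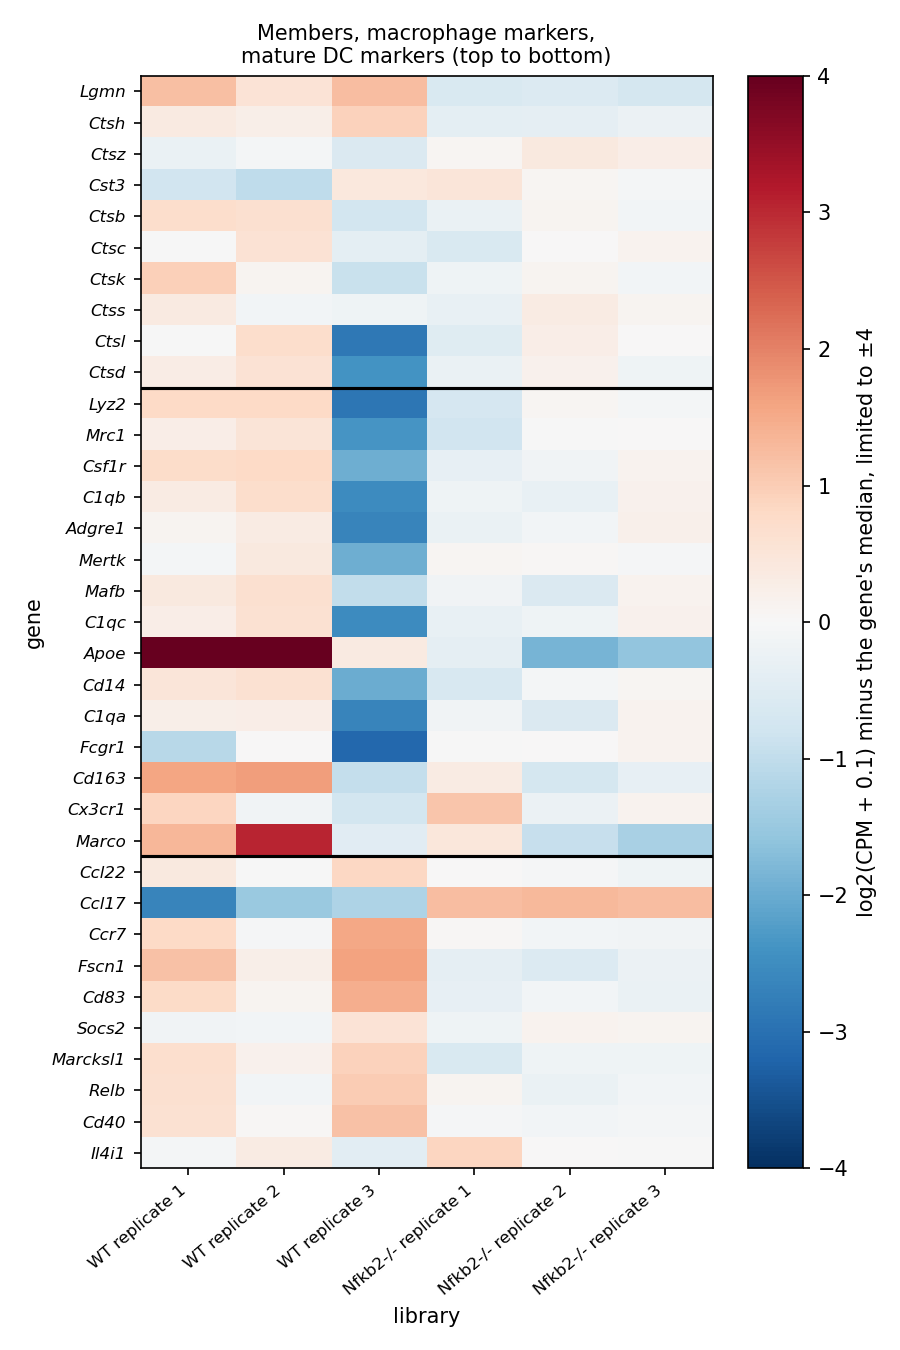
Log2(CPM + 0.1) of each gene minus its median over the 6 libraries, limited to 4 either way, for the 10 genes (top), 15 macrophage markers (middle) and 10 markers of mature DCs (bottom), with 1 column per library. In WT replicate 3, Ctsl and Ctsd are about as low as Lyz2 and Csf1r, while Lgmn, Ctsh and Cst3 are above their medians as are Ccr7 and Ccl22.

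Summed over the 9 proteases, CPM values were 4858, 4557 and 3303 in WT and 3027, 4286 and 3864 in Nfkb2-/- BMDCs, with overlapping ranges. The ratio of the summed proteases to Cst3, a description of CPM values and not of enzyme activity, was 3.17, 3.50 and 0.939 in WT and 0.827, 1.56 and 1.56 in Nfkb2-/-. WT replicate 3 again fell among the Nfkb2-/- libraries. Lgmn supplied 6.61%, 4.50% and 9.95% of the summed protease CPM in WT and 3.03%, 2.26% and 2.26% in Nfkb2-/-, without overlap. Ctss supplied 31.4% to 41.5% in WT and 41.9% to 45.9% in Nfkb2-/-, so that it was the leading protease in every library.

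Lists of genes around the members were then counted in the same fit. Of all 21849 genes in it, 3730 had an unadjusted p under 0.05 in edgeR. The share of all genes called was 1.14% with edgeR, 8.6% with DESeq2 and 2.23% with limma voom. The median log2 fold change of the 10 members was -0.13, against 0.08 over all genes. Of 14 other cathepsins, 5 passed the filter on low counts and 0 were called by edgeR, DESeq2 or limma voom, with 0 at an unadjusted p under 0.05. Ctsa, a carboxypeptidase that also protects other lysosomal enzymes, was the most abundant, at 97.6 ± 36.0 CPM (SD, n = 3) in WT and 108 ± 4.07 CPM (SD, n = 3) in Nfkb2-/-. The other 9, including Ctsg and the placental cathepsins, had at most 20 counts in any library.

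Among 7 tested lysosomal proteases outside the cathepsins, edgeR called Scpep1, a serine carboxypeptidase, as lower and 0 as higher, against 1.14% of all genes. In edgeR 6 of the 7 had an unadjusted p under 0.05, against 3730 of 21849 genes. The median log2 fold change of the 7 was 0.41. DESeq2 called 3, Scpep1 as lower and Napsa and Dpp7 as higher, against 8.6% of all genes, and limma voom 2. Dpp7, a dipeptidyl peptidase, was named after its values were seen. Scpep1 measured 242, 159 and 307 CPM in WT and 83.3, 80.7 and 87.1 CPM in Nfkb2-/-, a log2 fold change of -1.49 (SE 0.24, adjusted p = 0.0440, edgeR). Napsa, an aspartic protease related to cathepsin D, was higher without overlap, at 117, 141 and 166 CPM against 325, 251 and 267 CPM, and missed the threshold in edgeR (log2 fold change 0.99, adjusted p = 0.0595, edgeR). Prcp, a carboxypeptidase that acts after proline, measured 451 ± 87.3 CPM (SD, n = 3) in WT and 310 ± 40.4 CPM (SD, n = 3) in Nfkb2-/- (adjusted p = 0.220, edgeR).

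Of 12 tested inhibitors of lysosomal and granule proteases other than Cst3, edgeR called Serpinb6a as lower and 0 as higher, against 1.14% of all genes. In edgeR 4 of the 12 had an unadjusted p under 0.05, against 3730 of 21849 genes. The median log2 fold change of the 12 was -0.39. DESeq2 called 3, Serpinb6a, Serpinb9 and Serpinb1a, where 8.6% of all genes were called, and limma voom 1. Serpinb1a, an inhibitor of neutrophil proteases, was named after its values were seen. Serpinb6a, an intracellular serpin, measured 106, 69.6 and 116 CPM in WT and 26.5, 34.3 and 28.3 CPM in Nfkb2-/- (log2 fold change -1.71, SE 0.23, adjusted p = 0.0332, edgeR). Serpinb9, an inhibitor of granzyme B, had no overlap either, with 1233 ± 554 CPM (SD, n = 3) in WT and 364 ± 66.0 CPM (SD, n = 3) in Nfkb2-/- (adjusted p = 0.0735, edgeR). Cstb, the cytosolic cystatin B, measured 81.3 ± 9.84 CPM (SD, n = 3) and 102 ± 2.61 CPM (SD, n = 3), also without overlap (adjusted p = 0.314, edgeR).

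Among 12 genes for the sorting of lysosomal enzymes, edgeR called Sort1 as lower and 0 as higher, against 1.14% of all genes. DESeq2 called 2 (Sort1 and Scarb2), against 8.6% of all genes. In edgeR 3 of the 12 had an unadjusted p under 0.05, against 3730 of 21849 genes. The median log2 fold change of the 12 was -0.02. Sort1 encodes sortilin, a receptor that carries cargo from the Golgi to endosomes. It measured 302, 217 and 234 CPM in WT and 86.4, 97.8 and 86.6 CPM in Nfkb2-/-, a log2 fold change of -1.47 (SE 0.17, adjusted p = 0.0277, edgeR). M6pr, a mannose 6-phosphate receptor, measured 278 ± 24.9 CPM (SD, n = 3) in WT and 260 ± 29.2 CPM (SD, n = 3) in Nfkb2-/- (adjusted p = 0.789, edgeR). As for Lgmn, the calls of Scpep1, Serpinb6a and Sort1 were lost without WT replicate 1 or any Nfkb2-/- replicate, where no gene was called.

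None of the 12 class II processing partners was called by edgeR, DESeq2 or limma voom, with a median log2 fold change of 0.21. In edgeR 2 of the 12 had an unadjusted p under 0.05, against 3730 of 21849 genes. Cd74 measured 2671 ± 930 CPM (SD, n = 3) in WT and 2896 ± 144 CPM (SD, n = 3) in Nfkb2-/- (adjusted p = 0.860, edgeR), and H2-Aa 1633 ± 468 CPM (SD, n = 3) and 1370 ± 217 CPM (SD, n = 3). Of 10 regulators of lysosomal genes edgeR called 0 (1 at an unadjusted p under 0.05) and DESeq2 1 (Flcn, named after its values were seen), where it called 8.6% of all genes. Mitf, a relative of TFEB, measured 102 ± 39.1 CPM (SD, n = 3) in WT and 124 ± 19.5 CPM (SD, n = 3) in Nfkb2-/-. Of 24 lysosomal membrane proteins and other hydrolases edgeR called 0 (2 at an unadjusted p under 0.05) and DESeq2 2 (Npc2 and Cd63, named after their values were seen), near its 8.6% over all genes, with a median log2 fold change of 0.19. WT replicate 3 was the lowest library for 16 of these 24, Psap among them, the precursor of the saposins, with 3104, 3790 and 1218 CPM in WT and 2610 to 3431 CPM in Nfkb2-/-.

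**Figure D4:**
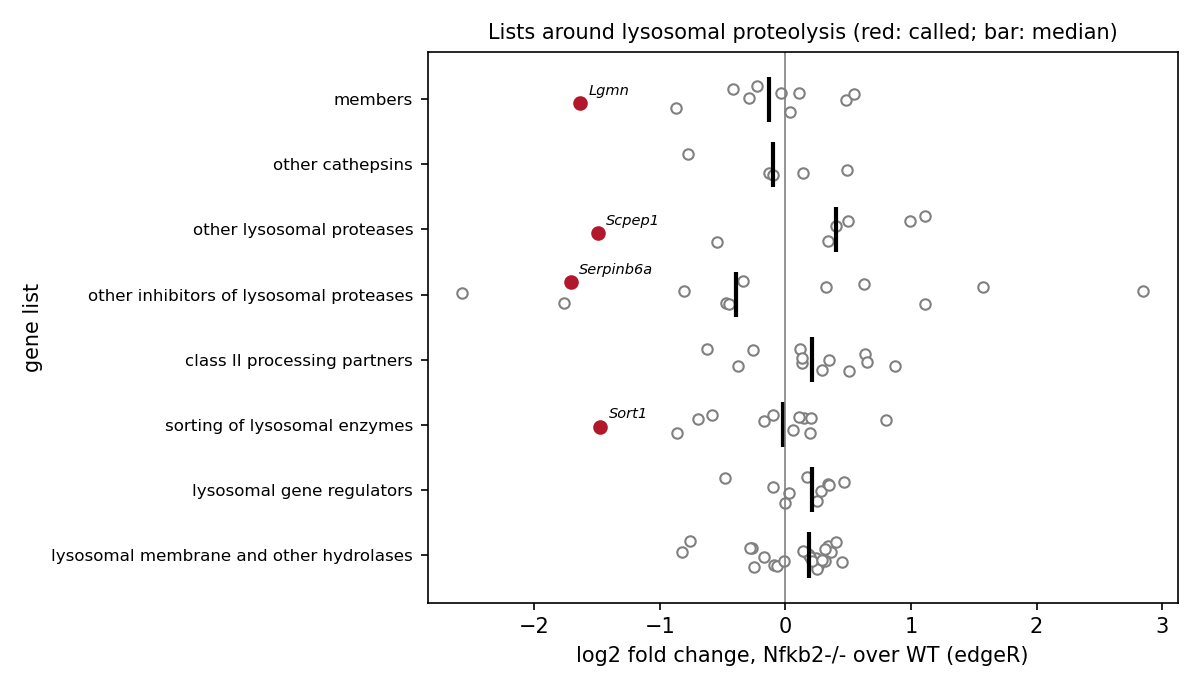
Log2 fold change of Nfkb2-/- over WT from edgeR for every tested gene of 8 lists, with red for called genes, grey rings for the others and a black bar for the list's median. The called genes Lgmn, Scpep1, Serpinb6a and Sort1 lie between -1.71 and -1.47, and the list medians lie between -0.39 and 0.41.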

How the data were processed

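RNA-seq counts of 3 WT and 3 Nfkb2-/- BMDC libraries were analysed, grouped by the genotype and replicate of the sample labels, which the study describes as independent biological replicates. The authors deposited whole-number read counts per Ensembl gene without normalization. HISAT2 and the builds GRCm38 and mm10 are named in the submitters' processing notes, while counter, annotation and strand are not given in the sources used here. A joined table of the same counts was not used. Names, positions and lengths came from GENCODE M21 (GRCm38), and IDs without a name, 1.01% to 1.75% of a library's counts, were left out. A sum of 50 counts or more over the 6 libraries was required, which 21849 genes met. They were normalized with TMM and tested by quasi-likelihood in edgeR, and p-values were adjusted over all of them by Benjamini-Hochberg. The standard error is the log2 fold change divided by the square root of F. The tools were edgeR 4.0.16, limma 3.58.1 and DESeq2 1.42.0 in R 4.3.3, with Biopython 1.88 for alignments, and the fits were tested on simulated data. RefSeq promoter windows were searched for fixed patterns.

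The members, lists and alternatives were chosen with earlier results of these data known. Named genes are the members, the called and the 3 most abundant genes of each list, and 5 NF-κB genes. Others were named after their values were seen, as stated beside them. Alternatives were DESeq2, limma voom, other normalizations, filters and thresholds, all IDs, the replicate number as a block and each library left out. Leaving out 2 libraries was added after the data were seen. Depth was 29863927 to 55623068 counts per library.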

Additional observations from a re-analysis of the deposited data

How the results depend on the processing

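Against 248 genes called, counts were 1878 with DESeq2 (945 higher and 933 lower), 488 with limma voom, 397 with filterByExpr, 1625 with no filter beyond 1 count, 459 with at least 10 counts in every library, 808 at an adjusted p under 0.1, 908 with 2 libraries left out, and 0 to 1248 with 1 library left out (2325 to 4354 at an unadjusted p under 0.05). DESeq2 gave an adjusted p for 17497 genes. With the replicate number as a block edgeR called 0 genes (3331 at an unadjusted p under 0.05) and 0 members, at a log2 fold change of -1.60 for Lgmn. Deviations of same-numbered libraries from their genotype means correlated at 0.262, 0.148 and 0.022, and those of unlike-numbered libraries at -0.237 to 0.164. With 3 libraries per genotype, these values cannot settle whether the numbers pair the samples. Against 1 member called, there were 2 with DESeq2, 4 with 2 libraries left out, and 0 to 2 with 1 library left out. Log2 fold changes with 1 library left out ranged from -1.82 to -1.52 (Lgmn), -0.99 to -0.63 (Ctsh), -0.75 to -0.19 (Ctsb), 0.23 to 1.07 (Cst3), -0.42 to 0.082 (Ctsc), -0.52 to 0.43 (Ctsd), -0.64 to 0.28 (Ctsk), -0.40 to 0.80 (Ctsl) and -0.14 to 0.23 (Ctss). Ctsh was called with DESeq2 (-0.89) and with 2 libraries left out (-0.62), as were Ctsb (-0.68) and Cst3 (0.87) in the latter. The sign turned for Ctsd with limma voom (0.43) and the block (0.36), for Ctsl with 2 libraries left out (-0.24), and for Ctss with no filter beyond 1 count (-0.016). The cause of these changes was not tested. Normalization by RLE or total counts and all IDs moved no call of a member.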

Other observations

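Ctsk is known from osteoclasts, and genes of osteoclast formation were measured beside it. Ocstamp, a membrane protein of osteoclast fusion, was called as higher in Nfkb2-/- BMDCs, at 0.569, 0.708 and 0.206 CPM in WT and 7.33, 6.20 and 4.56 CPM in Nfkb2-/- (log2 fold change 3.58, SE 0.45, adjusted p = 0.0307, edgeR). Dcstamp, its partner in cell fusion, measured 27.0, 38.4 and 4.44 CPM in WT and 58.3, 82.8 and 73.0 CPM in Nfkb2-/- without overlap, and did not pass the threshold (adjusted p = 0.261, edgeR). Of the 7 tested genes of this list edgeR called 1, against 1.14% of all genes. DESeq2 called 2, Ocstamp and, named after its values were seen, Itgb3, against 8.6%. Without overlap 4 were higher and 0 lower, where 24.7% of all genes had no overlap. WT replicate 3 was the lowest library for all 7. Ctsk itself overlapped between the genotypes.

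Of 11 tested DC markers edgeR called 1, Itgax, against 1.14% of all genes, and DESeq2 called 2 (Itgax and Clec9a), against 8.6%. Itgax, which encodes CD11c, measured 160, 277 and 123 CPM in WT and 745, 769 and 716 CPM in Nfkb2-/- (log2 fold change 1.99, adjusted p = 0.0414, edgeR). Without overlap 2 of the 11 were higher and 1 lower, where 24.7% of all genes had no overlap. The lower one was Zbtb46, at 179 ± 35.2 CPM (SD, n = 3) in WT and 123 ± 11.4 CPM (SD, n = 3) in Nfkb2-/- (adjusted p = 0.192, edgeR). The log2 fold change of Ccl17 was 2.92 (SE 0.37, adjusted p = 0.0307, edgeR). Of 8 tested markers of mast cells, basophils and eosinophils edgeR called 1, against 1.14% of all genes, and DESeq2 called 2, against 8.6%. Cpa3, a protease of mast cell granules, was called as lower by edgeR, at 10.8, 6.31 and 6.85 CPM in WT and 1.86, 2.34 and 2.49 CPM in Nfkb2-/- (log2 fold change -1.84, adjusted p = 0.0413, edgeR). DESeq2 called Cpa3 and Gata2. Gata2, named after its values were seen, was higher, at 1.31 ± 0.61 CPM (SD, n = 3) in WT and 3.64 ± 0.41 CPM (SD, n = 3) in Nfkb2-/- (adjusted p = 0.119, edgeR). Without overlap 3 of the 8 were lower and 1 higher, where 24.7% of all genes had no overlap. Besides Cpa3 the lower ones were Ms4a2 and Mcpt8, named after their values were seen. Ms4a2 and Mcpt8 were near the floor, at 1.42 CPM or less in every library. Of 10 tested granulocyte markers 4 had an unadjusted p under 0.05 in edgeR, against 3730 of 21849 genes. Of the 10, edgeR called 0 and DESeq2 3, against 1.14% and 8.6% of all genes. These 3 were Ngp and, named after their values were seen, Ltf and Csf3r. Their log2 fold changes in edgeR were -1.81, -1.60 and -1.79. S100a8, the most abundant, measured 67.3 ± 27.3 CPM (SD, n = 3) in WT and 87.1 ± 6.71 CPM (SD, n = 3) in Nfkb2-/-. The summed level of the 10 markers was 87.4 to 247 CPM in WT and 123 to 130 CPM in Nfkb2-/-.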
